A study of Mus musculus with 8 samples.

Results

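Tight junctions and cadherin contacts hold the intestinal epithelium together, and 10 genes that build them were followed in wild-type (WT) and cancer organoid cells grown apart or mixed. The genes were 6 claudins (Cldn2, Cldn3, Cldn4, Cldn7, Cldn15 and Cldn23), occludin (Ocln), the scaffold ZO-1 (Tjp1), E-cadherin (Cdh1) and LI-cadherin (Cdh17). They were chosen by name, with earlier results of these data known, and all 10 had a row among the 13420 genes of the read count table. Of these, 8 had enough reads to enter the test, which covered 5264 genes, while Cldn23 and Tjp1 did not. RNA came from mouse small intestine organoids, which are epithelial cultures grown in basement membrane extract with EGF, Noggin and R-spondin1. WT cells carried the mTmG reporter on C57BL/6 and came from Rosa26-CreERT2 mice by the study's methods, and cancer cells were labelled C57BL/6 (F6) with alleles that include Villin-CreERT2, Apc fl/fl and Tr53 fl/R172H (Tr53 as the label spells it). The Villin promoter restricts the recombinase to gut epithelium, and the sources do not say whether either line was a clone. Mixed cultures were started from 2 parts WT to 1 part cancer cells, and live WT (mTomato) and cancer (Dendra2) cells were sorted 3 days later.

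Each of the 4 groups had 2 libraries, named here by well. Pure WT cells are wells A01 and A05, and mixed WT cells are A02 and A06. Pure cancer cells are wells A03 and A07, and mixed cancer cells are A04 and A08. The labels do not say whether the 2 libraries of a group came from separate cultures, so the p-values measure the spread between these libraries, which may be technical. Depth was uneven, from 73109 reads on genes in A02 to 4733121 in A04, and levels are given as CPM, the reads of a gene scaled to the same library size. In this unit 1 read was worth 13.1 CPM in A02 but 0.196 CPM in A04. The 8 epithelial markers, among them Epcam and Krt8, all had reads in both WT groups, and their summed level ran from 4650 to 17818 CPM over the libraries. In cancer libraries Krt20 had 0 reads in A07 and A08, and Cdx2 had 0 reads in A08. Fibroblast markers summed to at most 7.31 CPM, and no endothelial marker had a row. The targeted genes could not check the labels, since these reads mark 3′ ends and the labels do not say which exons were removed. Apc was at most 10.5 CPM in any library, and Trp53 was 13.1 to 324 CPM in WT and 5.25 to 71.8 CPM in cancer libraries. Both lower ends were 1 read, in A02 and A03. Trp53 passed as lower in pure cancer than in pure WT cells (log2 -2.56, adjusted p = 0.0323, edgeR). It also passed when averaged over culture (-1.75, adjusted p = 0.0264, edgeR), and it did not in mixed culture (-0.93).

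Tight junctions seal the space between neighbouring epithelial cells near their apical side. Claudins form their strands, and by type they either tighten the seal or open small pores for ions. Occludin sits in the same strands, and ZO-1 ties them to actin. Below them, E-cadherin joins cells at adherens junctions through catenins, whereas LI-cadherin is a gut cadherin that adheres without binding catenins.

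The largest difference in these genes lay between cancer and WT cells and not between pure and mixed cultures. Cldn15, a cation pore claudin of the small intestine, had reads in every WT library and 2 reads in all 4 cancer libraries together. Cdh17 was lower in cancer cells in both cultures, and Cldn7 was lower when both cultures were averaged. Cdh1, Cldn3 and Cldn4 did not differ from WT cells by the test when averaged over culture. No gene of the 10 passed the adjusted test on mixing in either cell type, and the gene nearest to it was Cldn4 in WT cells, which was 6.29-fold higher in mixed culture. Values of each gene in each library are shown in the plot of CPM by group.

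**Figure D1:**
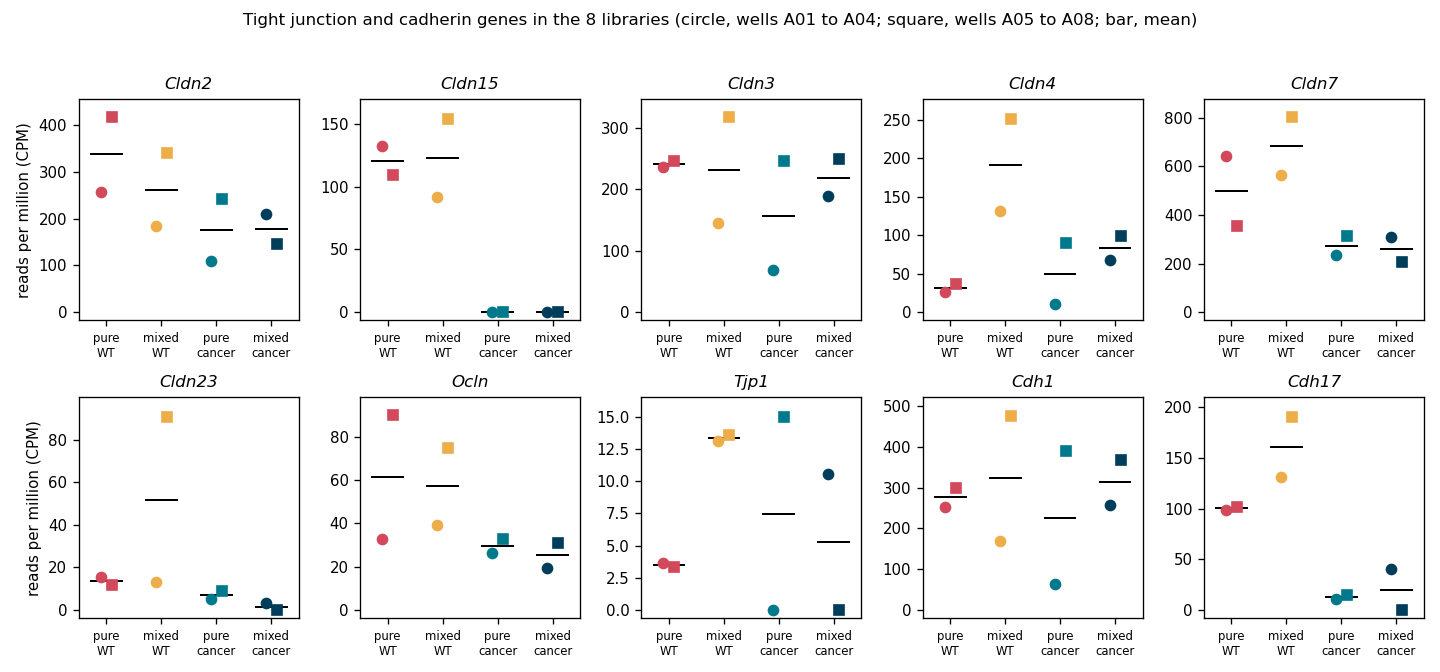
Normalised level of each of the 10 genes in the 8 libraries, in CPM on a linear axis that differs between genes, with circles for wells A01 to A04, squares for wells A05 to A08 and a bar for the mean of the 2 libraries. Cldn15 lies at or near 0 in all 4 cancer libraries, Cdh17 at 0 to 40.5 CPM there against 98.8 to 190 CPM in WT, and Cldn4 is highest in the 2 mixed WT libraries.

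Upstream windows are shown for the 4 claudins on which the comparisons below turn, to place the genes and to show what the sequences before their starts share. RefSeq windows (build GRCm38.p6) were found for 7 of the 10 genes, 9 windows in all, and the 250 bases before the start are printed 5′ to 3′ on the strand of the gene. The starts are those of RefSeq and need not be the first base of the GENCODE gene spans given below: the Cldn15 window lies inside that span, before a start within the gene, and the RefSeq start of Cldn2 lies upstream of its span. Capitals mark every match, on either strand, to 4 motifs: TTTATG (CDX), CAAAGTCCA (HNF4), TGANTCA (AP-1) and AACCNGTT (GRHL). The windows lie at chr5:136967619-136967868 (plus strand) for Cldn15, chr11:69964529-69964778 (plus strand) for Cldn7, chr5:134946935-134947184 (minus strand) for Cldn4 and chrX:139800558-139800807 (plus strand) for Cldn2.
Cldn15: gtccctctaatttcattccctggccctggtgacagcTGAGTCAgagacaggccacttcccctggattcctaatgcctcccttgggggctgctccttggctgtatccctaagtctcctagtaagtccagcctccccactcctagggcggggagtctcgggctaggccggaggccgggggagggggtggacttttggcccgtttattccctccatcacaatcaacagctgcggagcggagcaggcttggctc
Cldn7: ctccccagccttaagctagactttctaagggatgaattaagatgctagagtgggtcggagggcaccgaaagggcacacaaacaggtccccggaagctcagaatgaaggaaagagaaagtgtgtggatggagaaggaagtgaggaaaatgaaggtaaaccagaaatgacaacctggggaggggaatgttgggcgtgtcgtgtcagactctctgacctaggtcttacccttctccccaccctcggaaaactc
Cldn4: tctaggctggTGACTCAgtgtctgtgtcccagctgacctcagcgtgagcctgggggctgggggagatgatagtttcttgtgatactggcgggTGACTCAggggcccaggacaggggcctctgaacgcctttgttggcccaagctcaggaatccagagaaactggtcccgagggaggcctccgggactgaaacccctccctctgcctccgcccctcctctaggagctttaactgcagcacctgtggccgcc
Cldn2: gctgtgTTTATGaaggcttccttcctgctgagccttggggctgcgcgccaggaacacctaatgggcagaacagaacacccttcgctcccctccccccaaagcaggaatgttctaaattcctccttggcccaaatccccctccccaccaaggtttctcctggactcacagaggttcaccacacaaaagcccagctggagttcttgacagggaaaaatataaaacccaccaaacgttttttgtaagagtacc
The AP-1 letters occur 2 times before Cldn4, at -240 to -234 and -158 to -152 from the start, and 1 time before Cldn15, at -214 to -208, and they are found in 6.75% of all 32851 windows of this length. The CDX letters occur before Cldn2 at -244 to -239, and in 10.8% of all windows. Neither Cldn7 window, the one printed or a second at chr11:69965171-69965420, holds any of the 4 motifs, and no window of the 7 genes holds the HNF4 letters (0.384% of all windows) or the GRHL letters (1.79%). These are matches of letters and not bound sites.

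Cldn15 (chr5:136966616-136975858, 5 to 6 exons in its coding transcripts) was measured at 133 and 109 CPM in the pure WT libraries and at 91.8 and 154 CPM in the mixed WT libraries. Both pure cancer libraries had 0 reads, and the mixed cancer libraries had 2 reads (0.391 CPM, A04) and 0 reads (A08). No cancer library came near a WT library, and A04, the deepest library of all, had 4733121 reads in which to find the gene. In pure culture Cldn15 was 20.6-fold higher in WT than in cancer cells when 3 reads were set for both cancer libraries in place of 0. The 95% counting interval ran from 16.7 upward. In mixed culture 75 reads in WT and 2 reads in cancer cells put WT 384 times as high (95% counting interval 103 to 3230). The difference passed the edgeR test in pure culture (adjusted p = 0.000175), in mixed culture (adjusted p = 1.3e-05) and averaged over both (adjusted p = 1.52e-07). It passed in all 8 fits that left out 1 library. Barcode counts, which collapse copies of a molecule, were 85 and 95 in pure WT, 5 and 46 in mixed WT and 2 in all cancer libraries. In bulk RNA, fewer cells that express a gene and less of its RNA in each cell cannot be told apart. Between pure and mixed WT cells Cldn15 differed by 0.09 on the log2 scale (SE 0.615, 95% interval -1.18 to 1.37).

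Cldn2 (chrX:139800828-139811386, 2 exons), a pore for cations and water that marks crypts, was found in all 8 libraries. It was at 257 and 418 CPM in pure WT, 184 and 340 CPM in mixed WT, 110 and 242 CPM in pure cancer and 209 and 145 CPM in mixed cancer cells. The cancer libraries sat lower on the whole, but A07 and A04 fell within the WT range. The averaged log2 difference of cancer from WT was -0.75 (SE 0.362, 95% interval -1.50 to -0.01), and it did not pass over all genes (adjusted p = 0.198, edgeR). Of both pore claudins, only Cldn15 was nearly without reads in cancer cells.

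Cldn7 (chr11:69964779-69967885, 3 to 5 exons), a claudin of the lateral membrane that binds EpCAM, was at 643 and 354 CPM in pure WT and 564 and 804 CPM in mixed WT libraries. It was at 236 and 311 CPM in pure cancer and at 310 and 207 CPM in mixed cancer libraries. All 4 cancer libraries lay below all 4 WT libraries, with 311 CPM the highest cancer value and 354 CPM the lowest WT value. Averaged over culture Cldn7 was 2.18-fold lower in cancer cells (log2 -1.13, SE 0.328, 95% interval -1.81 to -0.45, adjusted p = 0.0202, edgeR). Taken apart, neither culture passed, with log2 differences of -0.86 in pure (adjusted p = 0.307) and -1.40 in mixed culture (adjusted p = 0.083). The averaged call was lost without A01 (adjusted p = 0.137), A06 (0.0724) or A08 (0.0729), while without A07 the mixed comparison passed (0.0386). On barcode counts the averaged call was lost as well (adjusted p = 0.220), where A04 held 247 of the 256 barcodes that the design can tell apart.

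Cldn3 and Cldn4 lie next to each other on chromosome 5, 39279 bases apart, each with 1 exon, and both are barrier claudins. Cldn3 (chr5:134986214-134987472) was at 236 and 245 CPM in pure WT, 144 and 317 CPM in mixed WT, 68.2 and 245 CPM in pure cancer and 189 and 249 CPM in mixed cancer cells. The groups overlapped throughout, and the averaged difference of cancer from WT was -0.38 on the log2 scale (95% interval -1.17 to 0.42). The interval reaches down to 0.4435 of the WT level, so a fall to that level is not excluded. The antisense gene Wbscr25 overlaps Cldn3, but it had 12 reads in A04 and none in the other libraries.

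Cldn4 (chr5:134945119-134946934) was at 26.5 and 36.5 CPM in pure WT and at 131 and 251 CPM in mixed WT libraries, so that both mixed libraries lay above both pure ones. Pure cancer libraries differed 8.55-fold from each other, at 10.5 CPM in A03 and 89.8 CPM in A07, and mixed cancer libraries were at 67.5 and 98.6 CPM. The mixed WT libraries held the highest Cldn4 levels of the 8. Mixed WT exceeded pure WT by 2.65 on the log2 scale (SE 0.689, 95% interval 1.23 to 4.08), which corresponds to 6.29-fold. Over all genes the adjusted p was 0.0796 (edgeR), so the difference was not called, although its unadjusted p was 0.000802. The call depended on the setting, and so did the number of calls over all genes, which is given with the settings below. Cldn4 passed on barcode counts (adjusted p = 5.75e-05), on estimated transcript counts (0.00461), without a filter on low counts (0.0414), with the 4 WT libraries alone (0.00333) and with DESeq2 (0.015). It also passed without A02 (0.0121), A03 (0.00422), A04 (0.0414), A07 (0.00402) or A08 (0.0137), and did not without A06 (0.35, with 1 shallow mixed WT library remaining), A01 or A05. It did not pass with other scaling factors or a minimum count of 50 (adjusted p at most 0.0985). Under every one of these settings the fitted change was between 1.96 and 2.94 on the log2 scale. In cancer cells the change with mixing was 0.58 (95% interval -0.88 to 2.04). The difference of the mixing changes was 2.08 on the log2 scale, and it did not pass over all genes (adjusted p = 0.673; unadjusted p = 0.0439, where 7.28% of all tested genes had an unadjusted p under 0.05), and it was -0.35 without A07. A change limited to WT cells was thus not shown.

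Cldn23 (chr8:35824712-35826559, 1 to 2 exons) had too few reads for the test. It had 17 and 21 reads in pure WT (15.6 and 11.8 CPM), 1 and 40 reads in mixed WT (13.1 and 90.6 CPM), 1 and 3 reads in pure cancer (5.25 and 8.98 CPM), and 16 and 0 reads in mixed cancer cells (3.13 and 0 CPM). A06 alone stood high. Pooled over the mixed libraries, Cldn23 was 26.2 times as high in WT as in cancer cells (95% counting interval 14.4 to 50.1), and pooled over the pure libraries it was 1.74 times as high (0.625 to 6.7). When the filter was dropped the mixed comparison passed (log2 -4.35, adjusted p = 0.00368, edgeR), as did the average over culture (log2 -2.66, adjusted p = 0.00994, edgeR). DESeq2 called Cldn23 in the mixed comparison too. The mixed WT level in these fits came almost wholly from A06.

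Occludin (Ocln, chr13:100496507-100552718) was at 32.9 and 89.9 CPM in pure WT, 39.3 and 74.8 CPM in mixed WT, 26.2 and 32.9 CPM in pure cancer and 19.4 and 31.1 CPM in mixed cancer libraries. The cancer libraries lay below the WT libraries narrowly, 32.92 CPM in A07 against 32.95 CPM in A01. The averaged log2 difference of -1.24 (SE 0.536, 95% interval -2.34 to -0.13) did not pass (adjusted p = 0.146, edgeR). Tjp1 (chr7:65296165-65527781), which encodes ZO-1, was barely sampled at its 3′ end, with 4 (A01) and 6 (A05) reads in pure WT, 1 (A02) and 6 (A06) in mixed WT, 0 and 5 in pure cancer and 54 and 0 in mixed cancer cells. All cancer reads came from 2 libraries, A04 and A07, and no fold was drawn from these counts.

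Of the 2 cadherins, Cdh17 passed the test between cancer and WT cells and Cdh1 did not; the difference between them was not tested. Cdh17 (chr4:11758147-11817895, 15 to 18 exons) was at 98.8 and 102 CPM in pure WT and 131 and 190 CPM in mixed WT libraries. In cancer cells it was at 10.5 and 15.0 CPM in pure and at 40.5 and 0 CPM in mixed culture, where 0 reads in A08 allow up to 15.6 CPM. All 4 cancer libraries lay below all 4 WT libraries. Cdh17 was 7.58-fold lower in pure cancer cells than in pure WT cells (log2 -2.92, SE 0.864, adjusted p = 0.0304, edgeR) and 6.01-fold lower in mixed cancer than in mixed WT cells (log2 -2.59, SE 0.742, adjusted p = 0.0349). Averaged over culture it was 6.75-fold lower (log2 -2.75, 95% interval -3.93 to -1.58, adjusted p = 0.00107), and this call stood in all 8 fits that left out 1 library, with a larger difference of -6.28 without A04. The call in pure culture was lost without A03 (adjusted p = 0.0524), A05 (0.100) or A07 (0.0609), and the call in mixed culture without A06 (0.195) or A08 (0.22).

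Cdh1 (chr8:106603351-106670246, 16 to 17 exons), the main cadherin of epithelia, was at 254 and 300 CPM in pure WT and 170 and 476 CPM in mixed WT libraries. It was at 63.0 and 389 CPM in pure cancer and 257 and 368 CPM in mixed cancer libraries. The levels overlapped between all groups, and the spread within pure cancer cells (6.18-fold between A03 and A07) was wider than any difference between group means. The averaged difference of cancer from WT was -0.20 on the log2 scale (SE 0.419, 95% interval -1.06 to 0.67, adjusted p = 0.829, edgeR). Without A07 the average became -1.20 and passed (adjusted p = 0.0487), as did pure cancer against pure WT (-2.23, adjusted p = 0.043), since A03 then stood alone for pure cancer cells. A03 was the lowest library for 4 of the 8 tested genes (Cldn2, Cldn3, Cldn4 and Cdh1), as it was for 10.7% of all tested genes. A06 was the highest for 6 of the 8, as it was for 14.8% of all tested genes.

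Counted together, 2 of the 8 tested genes were called lower in pure cancer than in pure WT cells, against 4.84% of all tested genes called lower and 9.95% called in either direction. In mixed culture 2 of 8 were called lower, against 4.41% lower and 6.42% in either direction. Averaged over culture 3 of 8 were called lower and none higher, against 7.37% and 14.2%. The average is made of the same libraries as the other 2 comparisons and adds no samples to them. Because the genes were chosen with earlier results of these data known, these counts only describe them. All 4 cancer libraries lay below all 4 WT libraries in 4 of the 8 genes (Cldn15, Cdh17, Cldn7 and Ocln), as in 8.11% of all tested genes. None of the 8 had all cancer libraries above, as 8.24% of all tested genes did. The median averaged log2 difference was -0.94 over the 8 genes and 0.04 over all tested genes.

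Mixing gave no call in these genes. Between mixed and pure WT cells 0 of 8 passed (edgeR), against 0.741% of all tested genes, and 1 of 8 (Cldn4) had an unadjusted p under 0.05, against 9.67%; DESeq2 called Cldn4. Between mixed and pure cancer cells 0 of 8 passed by edgeR or DESeq2, none had an unadjusted p under 0.05, and over all tested genes the shares were 0% and 1.31%. For the difference of the mixing changes 0 of 8 passed by either tool, against 0.076%. The intervals leave room for changes of some size: for Cdh1 the change with mixing was 0.30 in WT (95% interval -0.92 to 1.52) and 0.41 in cancer cells (95% interval -0.82 to 1.65). The Cdh1 change in cancer cells turned on single libraries, at 2.35 without A07 (adjusted p = 0.441, edgeR) and -0.34 without A03. The 2 mixing comparisons share no library with each other, while each shares its libraries with the cancer comparisons, as the plot of fitted changes shows side by side.

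**Figure D2:**
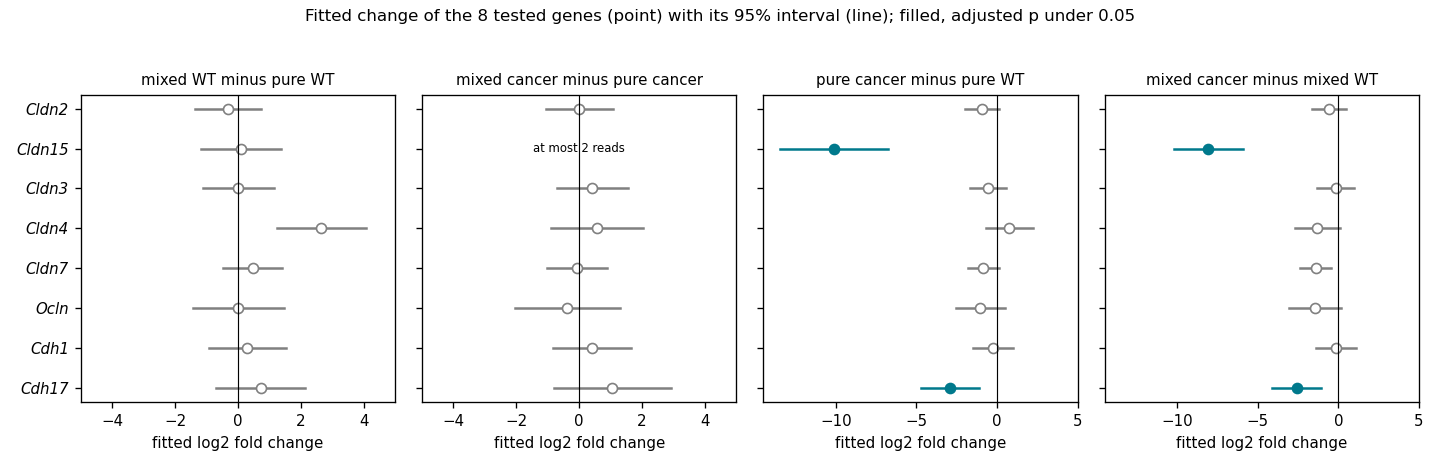
Fitted log2 fold change of the 8 tested genes in 4 comparisons (points) with 95% intervals (lines), filled where the adjusted p of the edgeR test was under 0.05; the 2 panels of mixing have another axis range than the 2 panels of cancer against WT. Cldn15 and Cdh17 are the filled points in both comparisons of cancer with WT cells, no point is filled for mixing, and Cldn15 has no point where both cancer groups held at most 2 reads.

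Other genes were taken from 7 lists with 117 symbols, of which 84 had a row and 53 were tested. The lists cover cell contacts, the brush border cadherin complex and transcription factors linked to junctions. None of the 53 was called on mixing in WT or cancer cells by edgeR or DESeq2. An unadjusted p under 0.05 (edgeR) was found for 7 in WT and 0 in cancer cells, against 9.67% and 1.31% of all tested genes. In pure culture 6 were lower and 1 higher in cancer than in WT cells, where 4.84% of all tested genes were lower and 9.95% were called either way. In mixed culture 10 were lower and 0 higher, against 4.41% and 6.42%. Averaged over culture, 13 were lower and 1 higher in cancer cells, against 7.37% lower and 14.2% either way over all tested genes, with a median log2 difference of -0.33 against 0.04 over all tested genes. The count of lower genes ran from 6 without A06 to 17 without A02 among the fits that left out 1 library. The 13 genes lower on average were unevenly spread over the lists, with 5 in the brush border cadherin complex and 3 among the transcription factors. The shares of 7.37% lower and 14.2% either way also stand beside the averaged count of each list below.

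The brush border cadherin complex links the tips of microvilli through Cdhr2 and Cdhr5, which are held by the scaffolds Ush1c and Anks4b and the motor Myo7b. All 5 members with a row were lower in cancer cells when averaged over culture. Cdhr5 had 149 reads in the WT libraries, with 0 in A02, and 0 in the cancer libraries. With 3 reads set for the cancer libraries in place of 0, it was 85.4-fold higher in WT (95% counting interval from 68.6 upward). Myo7b had 402 reads in WT and 1 in cancer libraries, a ratio of 691 (95% counting interval 123 to 27370), and Ush1c 188 and 1, a ratio of 323 (57.3 to 12830). Cdhr2 differed by -3.73 on the log2 scale (SE 0.763, adjusted p = 0.000992, edgeR). Anks4b differed by -4.62 in the fit (adjusted p = 0.0409), but it had 61 reads in WT and 43 in cancer libraries, a pooled ratio of 2.44 (1.62 to 3.69). All 43 cancer reads were in A04, the deepest library (8.41 CPM there against 12.9 to 26.2 CPM in WT). The Anks4b call was lost without A03 (0.0549), A07 (0.111) or A08 (0.0535) and with DESeq2 (0.0654), and without A01, A04, A05 or A06 and on barcode or transcript counts the gene did not enter the test. The call of Cdhr5 was lost without A06 (adjusted p = 1) and with DESeq2 (0.327).

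Most other partners of claudins and of E-cadherin did not pass. Of 14 tested tight junction partners, 1 was lower and 1 higher. Ildr1, a protein of contacts where cells meet in corners, differed by -6.18 (adjusted p = 0.00112, edgeR), with 100 reads in WT and 11 in cancer libraries. The pooled ratio of Ildr1 was smaller than the fitted change, at 15.6 (95% counting interval 8.37 to 32.3), all 11 cancer reads were in A04, and the gene did not enter the test without A06 or on transcript counts. Arhgef2, an exchange factor held at tight junctions, was at 6.74 to 26.2 CPM in WT and 42 to 98.8 CPM in cancer libraries, a log2 difference of 2.61 (SE 0.599, adjusted p = 0.00304). Lsr, F11r (JAM-A) and Ybx3 had differences of 0.15, 0.83 and -0.02 and did not pass. Of 12 tested adherens junction genes, Pvrl3 (nectin-3) differed by -7.36 (adjusted p = 0.000224), with 148 reads in WT and 1 in cancer libraries (pooled ratio 254.5, 95% counting interval 45.0 to 10120), and was lost without A06 (adjusted p = 1). Ctnnb1 (beta-catenin) differed by -1.07 (SE 0.342, adjusted p = 0.0369) and was lost without A03, A04, A05, A06 or A08 (adjusted p from 0.0625 to 0.382) and on barcode counts (0.0941). Ctnna1, Ctnnd1 and Pvrl2, also parts of adherens junctions, differed by 0.29, -0.07 and -0.22 and did not pass.

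Desmosomes are the spot contacts that anchor keratin. Of 8 tested desmosome genes, the cadherins Dsc2 (log2 -2.36, adjusted p = 0.0234, edgeR) and Dsg2 (-1.96, adjusted p = 0.043) were lower in cancer cells. Dsc2 was lost without A04, A05 or A06 (adjusted p from 0.101 to 0.435) and Dsg2 without A01, A04, A05, A06 or A07 (0.0895 to 0.347). Both were also lost with DESeq2 (0.0551 for Dsc2 and 0.086 for Dsg2), and Dsg2 on barcode counts (0.13), on transcript counts (0.0693) and without a filter (0.0677). Perp, a desmosome membrane protein, was lower in mixed cancer than in mixed WT cells (-2.52, adjusted p = 0.0352), a call lost without A04, A05, A06 or A08 (adjusted p from 0.0566 to 0.285). In pure culture Perp differed by -0.02 (adjusted p = 0.993), and on average by -1.27 (adjusted p = 0.0968, edgeR). Pkp2, Pkp3 and Pkp4, the plakophilin plaque proteins, differed by -0.51, 0.83 and 0.62 on average and did not pass. Of 6 tested genes that bind claudins or cleave their partners, 0 were called on average by edgeR or DESeq2 on read counts. An unadjusted p under 0.05 (edgeR) was found for 3, as for 24.7% of all tested genes. Spint1, another listed gene, was called on average by edgeR on barcode counts and on estimated transcript counts. Epcam, which binds Cldn7, differed by -0.85 (95% interval -1.53 to -0.16, adjusted p = 0.0988), and Spint2 and St14, a protease inhibitor and a membrane protease, by -0.57 and -0.01.

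Of 7 tested transcription factors linked to epithelial junctions, 3 were lower in cancer cells, and all 3 are factors of intestinal identity. Hnf4a was at 321 to 641 CPM in WT and 5.19 to 47.2 CPM in cancer libraries (log2 -3.65, SE 0.422, adjusted p = 7.75e-07, edgeR). Cdx1 had 836 reads in WT and 4 in cancer libraries, a ratio of 359 (95% counting interval 140 to 1322). Cdx2 differed by -3.04 (adjusted p = 0.00184). Elf3, Klf5 and Ovol1, general epithelial factors, differed by 0.22, -0.92 and -0.33 and did not pass. Of the 20 other claudins, 8 had a row and only Cldn25 was tested. It did not pass (averaged log2 0.20, 95% interval -0.60 to 0.99), and Cldn12 had 0 to 85 reads per library.

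**Figure D3:**
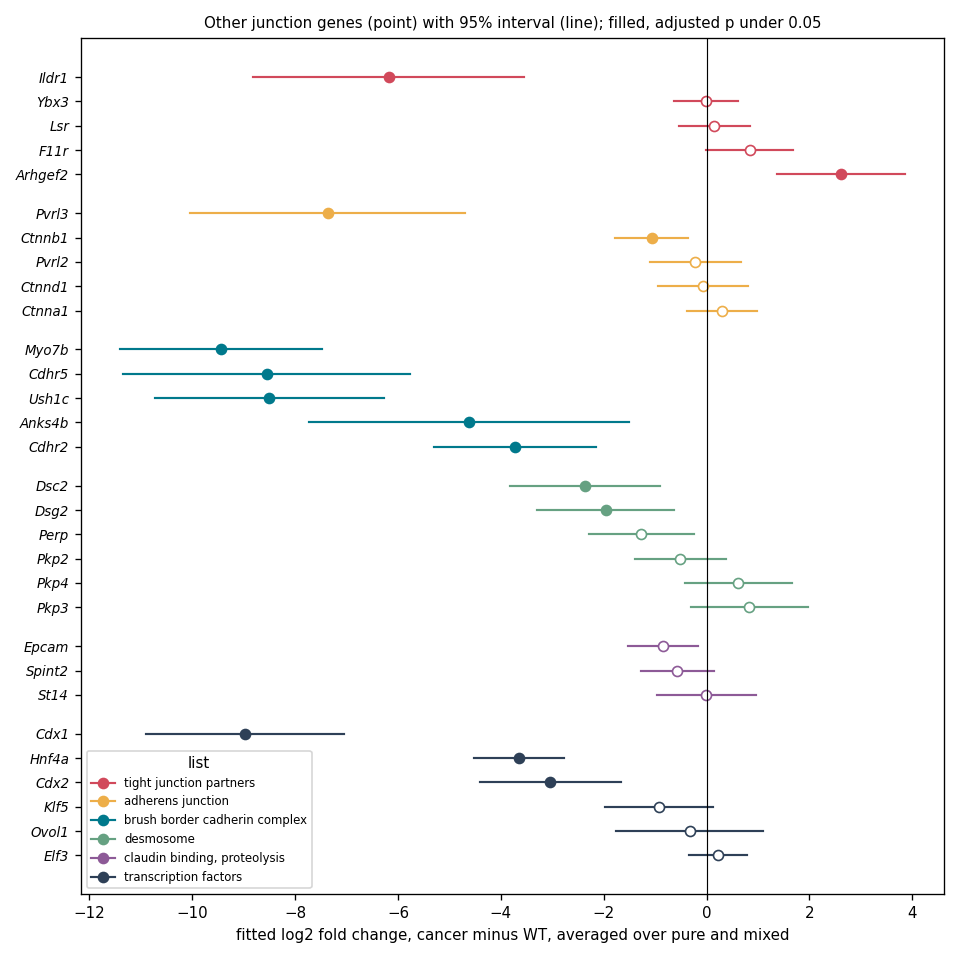
Fitted log2 difference of cancer from WT cells, averaged over pure and mixed culture, for the named genes of 6 junction lists (points) with 95% intervals (lines), filled where the adjusted p of the edgeR test was under 0.05. All 5 brush border cadherin genes and 3 of the 6 transcription factors shown are filled to the left of 0, while Arhgef2 is the filled point to the right.

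Markers of differentiated cells moved with the lower genes. The 13 enterocyte markers with a row summed to 1629 to 1980 CPM in WT and to 0 to 15.7 CPM in cancer libraries, and all 8 that were tested passed as lower on average. The 7 enteroendocrine markers summed to 322 to 645 CPM in WT and to 0 to 1.57 CPM in cancer libraries. Of the 8 epithelial markers, 4 passed as lower on average (Lgals4, Krt8, Krt20 and Cdx2) and 0 as higher. Goblet markers (6 with a row) summed to 2910 to 3953 CPM in WT and to 456 to 1113 CPM in cancer, Paneth markers (6) to 918 to 4195 CPM and 520 to 882 CPM, and stem markers (8) to 329 to 864 CPM and 168 to 685 CPM. Within these lists the genes did not move together. In cancer libraries the goblet sum was nearly all Spink4 (151 to 2295 reads), which did not pass (log2 0.40, adjusted p = 0.47), while Tff3 had 1 to 17 reads there against 107 to 3199 in WT. The Paneth sum was nearly all Mmp7 in cancer libraries (91 to 2674 reads), which was higher in cancer cells (log2 2.93, adjusted p = 2.53e-06, edgeR), while Lyz1 had 0 to 14 and Ang4 0 to 7 reads there. Of the stem markers, Smoc2 had 0 to 4 reads and Olfm4 none in cancer libraries, while Lgr5 had reads in 3 of the 4. Tnfrsf19 had 10 to 394 reads in cancer libraries and 0 to 25 in WT libraries. Of 7 tested stem markers, 1 passed as higher and 2 as lower in cancer cells on average (edgeR). In mixed culture 2 passed as higher and 1 as lower, and in pure culture 0 and 2. Over all 5264 tested genes, 358 passed as higher and 388 as lower on average. The counts were 106 and 232 in mixed culture and 269 and 255 in pure culture. Of 8 immune markers 3 had a row, Cd14, Cd68 and Csf1r, and they summed to 26.2 to 108 CPM in WT and 121 to 473 CPM in cancer libraries, most of it Cd14. Of these, 2 were tested and 2 passed as higher in cancer cells on average (edgeR), as did 358 of all 5264 tested genes. Cd68 had 0 to 56 reads in cancer libraries and 0 to 1 in WT libraries. Csf1r had 2 reads in A04, 1 in A07 and none elsewhere, and Ptprc, which all leukocytes carry, had no row. The part of these markers in the values of Cldn15, Cdh17 and Cldn7 was not tested.

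The calls that hinge on few libraries are drawn in the plot of settings. Cdh17 stayed called on average under all 7 other settings and all 8 fits that left out a library, whereas Cldn7, Cdh1 and Cldn4 each crossed the threshold under some of them.

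**Figure D4:**
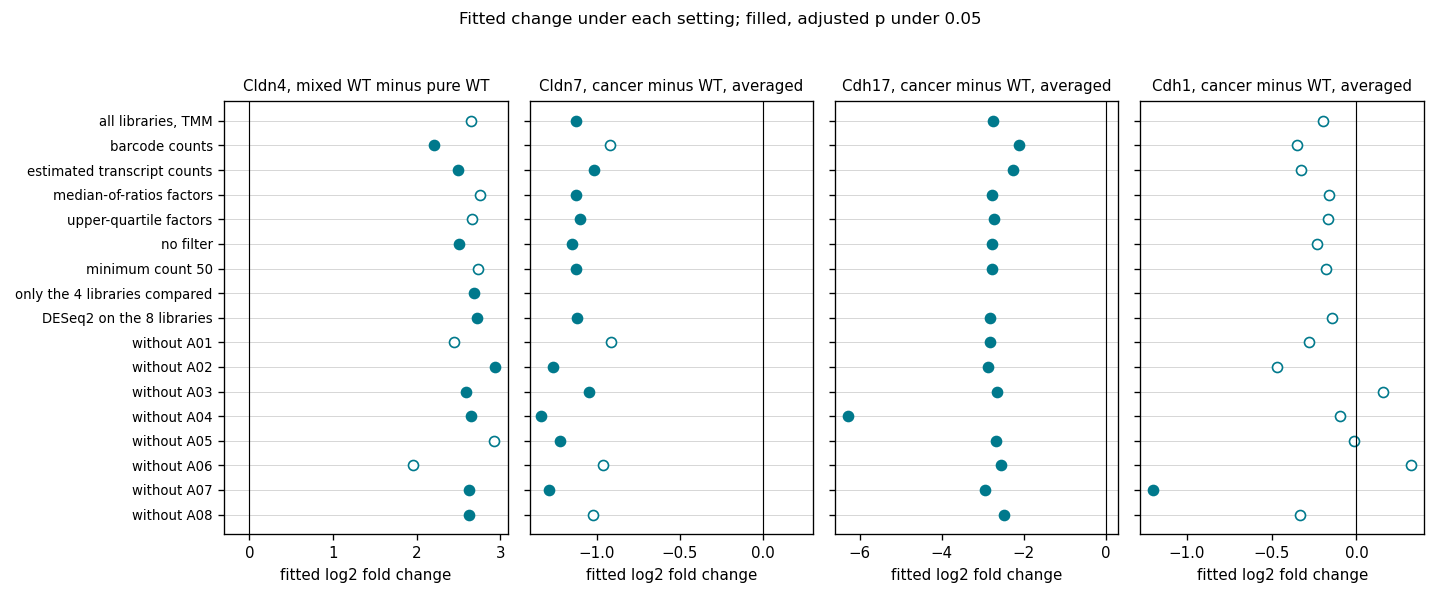
Fitted log2 fold change of 4 genes under each setting (points), filled where the adjusted p was under 0.05; rows name the setting or the library left out, and the setting with 4 libraries exists for the mixing comparison alone. Cldn4 is filled in 5 of the 8 other settings and in 5 of the 8 fits that left out a library and is never below 1.96, Cdh17 is filled throughout, Cldn7 is open on barcode counts and without A01, A06 or A08, and Cdh1 is filled without A07 alone.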

How the data were processed

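RNA of sorted organoid cells was sequenced by CEL-Seq, which counts 3′ ends. Per the labels and the study's methods, the authors aligned read 2 to the mm10 RefSeq transcriptome with BWA, discarded reads with several best places and counted the rest per gene with featureCounts. The read counts deposited by the authors were not normalised, and copies made by amplification are in them. Barcode counts, also deposited, reach at most 256 per gene. The estimated counts of transcripts, which the authors deposited too, were rounded here to whole numbers, and how they were computed is not given in the sources used here. A deposited table of the authors' own DESeq2 1.22.2 comparison of mixed with pure WT cells was not used, and 2 rows that name no mouse gene were left out.

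Read counts were tested with edgeR 4.0.16 (R 4.3.3) by quasi-likelihood, with TMM factors, filterByExpr at a minimum count of 10, all 8 libraries in 1 fit, and Benjamini-Hochberg adjustment over 5264 genes at 0.05. SEs were derived from the fitted change and the F statistic of its test, and 95% intervals from those SEs and the t distribution. CPM use its library sizes. Counting intervals are exact Poisson and cover counting error only. Positions come from GENCODE vM21 (GRCm38), and no 50-base window in the last 500 bases of a member's coding transcripts was shared with another gene. All 10 genes, every called gene of the 7 lists, and up to 3 further genes per list with most reads are named. Members and lists were chosen with earlier results of these data known. Some listed genes and an allele of the cancer line are not reported here, and counts over the lists leave those genes out. DESeq2 1.42.0 and other settings served as alternatives.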

Additional observations from a re-analysis of the deposited data

How the results depend on the processing

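Of 639 values of single genes recomputed under other settings, 565 kept their direction and their side of the threshold, 12 lost and 14 gained a call, 48 uncalled values changed sign, and 0 called values reversed. The count of genes called between mixed and pure WT cells was 0, but 1 (Cldn4) on barcode counts, on estimated transcript counts, without a filter, with the 4 libraries alone, with DESeq2 and at an unadjusted p under 0.05, and 0 to 1 when 1 library was left out. Between pure cancer and pure WT cells it was 2, but 1 at a minimum count of 50 and 1 to 2 with 1 library left out. Between mixed cancer and mixed WT cells it was 2, but 3 on barcode counts, without a filter, with DESeq2 and at an unadjusted p under 0.05, 1 at a minimum count of 50 or with the 4 libraries alone, and 1 to 4 with 1 library left out, the highest without A07 (Cdh17, Cldn15, Cldn23 and Cldn7). Averaged over culture it was 3, but 2 on barcode counts, 4 without a filter, 5 at an unadjusted p under 0.05 and 2 to 5 with 1 library left out, the highest again without A07. For the difference of the mixing changes it was 0, but 1 at an unadjusted p under 0.05. Calls over all genes moved with the setting too. On mixing in WT cells they were 39 in the main fit and 39 at a minimum count of 50. They were 93 on barcode counts, 82 on estimated transcript counts, 68 without a filter, 108 with the 4 libraries alone and 69 with DESeq2. Between mixed cancer and mixed WT cells they were 338 in the main fit, 354 on barcode counts, 418 without a filter and 324 with DESeq2. The cause of the shifts in these counts was not tested. The fits also differed in the genes of the 10 that entered them, 8 in the main fit. There were 10 without a filter and with DESeq2, 7 at a minimum count of 50 and 5 to 9 with the 4 libraries alone. Cldn23, which the main fit did not test, was the gene added in mixed culture without a filter and with DESeq2. It was also the gene added to the average without a filter. Changing the scaling factors moved the median of all tested genes by at most 0.11 on the log2 scale (for the difference of the mixing changes) and changed no call of the 8 genes. In fits that left a group with 1 library, that library was assumed to vary like the other groups. No paired analysis was possible because no label ties the wells of different groups to a shared culture. Depth limits the shallow libraries most: 3 reads are worth 39.3 CPM in A02 and 15.6 CPM in A08.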
